A study of Mus musculus with 4 samples.

Results

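The genes described here make, modify, store and oxidise the ceramides and related lipids of the skin barrier. They are 35 genes of sphingolipid, ceramide, lipoxygenase and lamellar body biology, taken by symbol from the platform annotation; the list was drawn up with earlier results of these data known. Of these, 34 had a probe set that names that gene alone, among 19938 genes in all, and Sts was not analysed here. All 34 passed the filter on low values, which kept the 14953 genes tested.

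RNA was measured in mouse skin at E17.5 (E for embryonic day), when the epidermis is forming its barrier. The Ovol2 BT group (2 arrays) carried TRE-Ovol2-Flag, a tetracycline-responsive transgene for a tagged Ovol2, together with K5-tTA, in which a keratin 5 promoter, active in basal keratinocytes, drives the tetracycline transactivator. The control group (2 arrays) carried TRE-Ovol2-Flag without a driver, or no transgene. Each array held RNA of 2 mice, all labelled female. Strain is given as FVB/N for Ovol2 BT and CB6F1 for the controls although the mice are called littermates, so by the labels a strain difference cannot be told apart from the transgene. Ovol2, a zinc finger transcription factor of epithelia, had an intensity of 4367 and 3893 in Ovol2 BT and of 360 and 161 in the controls. Skin was taken whole, so keratinocyte genes (Krt5, Krt14, Krt1, Krt10, Lor) and those of fibroblasts, fat and muscle (Col1a1, Plin1, Acta1) were all measured with intensities of at least 599 on every array. In such samples fewer cells of a type and less RNA per cell cannot be told apart.

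Ceramides form when serine palmitoyltransferase joins serine to a fatty acid, after which ceramide synthases attach an acyl chain. In the upper epidermis glucosylceramides, sphingomyelins and very long acylceramides are packed into lamellar bodies, secreted, and turned back into ceramides between the cornified cells. Lipoxygenases oxidise the linoleate of acylceramides, a step needed to bind lipid to the cornified envelope, and inherited loss of several of these enzymes causes ichthyosis in humans.

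A single member passed the test, 1 of 34, where 0.963% of all genes tested did. Sptlc3, a catalytic subunit of serine palmitoyltransferase, was lower in Ovol2 BT skin, and its partner subunits Sptlc1 and Sptlc2 did not pass. Sequences around a start of the 3 subunit genes are shown for that reason. With them stand those of Alox12e and Alox12b, epidermal lipoxygenase genes whose differences were of opposite sign. Neither was called, and the Alox12b difference changed sign under some alternatives. Each sequence is the RefSeq window of 300 bases around a start of the gene in GRCm38.p6, 5′ to 3′. The starts used for Sptlc1 and Alox12e lie inside the gene's span, which ends at 53377417 and 70322720, both on the minus strand. More of these windows therefore lies within the gene than of the others. Capitals mark CCAAT or its reverse complement ATTGG.
Sptlc3, chr2:139493663-139493962, plus strand: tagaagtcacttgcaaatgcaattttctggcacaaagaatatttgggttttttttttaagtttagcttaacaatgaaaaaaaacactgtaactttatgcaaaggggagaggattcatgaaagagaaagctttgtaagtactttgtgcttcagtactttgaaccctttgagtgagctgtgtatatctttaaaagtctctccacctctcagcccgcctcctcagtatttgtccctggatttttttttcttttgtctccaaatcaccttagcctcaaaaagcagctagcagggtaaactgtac
Sptlc1, chr13:53377312-53377611, minus strand: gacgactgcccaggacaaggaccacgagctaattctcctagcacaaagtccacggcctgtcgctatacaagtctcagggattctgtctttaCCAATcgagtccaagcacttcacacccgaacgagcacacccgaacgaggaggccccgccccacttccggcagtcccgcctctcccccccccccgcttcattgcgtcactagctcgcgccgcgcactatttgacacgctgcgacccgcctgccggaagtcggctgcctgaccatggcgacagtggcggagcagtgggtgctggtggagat
Sptlc2, chr12:87388306-87388605, minus strand: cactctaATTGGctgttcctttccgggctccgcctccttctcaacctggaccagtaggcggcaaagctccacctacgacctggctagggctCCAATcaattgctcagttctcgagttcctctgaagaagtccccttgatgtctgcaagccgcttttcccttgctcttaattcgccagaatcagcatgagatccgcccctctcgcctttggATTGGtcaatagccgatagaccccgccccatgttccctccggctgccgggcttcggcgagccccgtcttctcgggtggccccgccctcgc
Alox12e, chr11:70322481-70322780, minus strand: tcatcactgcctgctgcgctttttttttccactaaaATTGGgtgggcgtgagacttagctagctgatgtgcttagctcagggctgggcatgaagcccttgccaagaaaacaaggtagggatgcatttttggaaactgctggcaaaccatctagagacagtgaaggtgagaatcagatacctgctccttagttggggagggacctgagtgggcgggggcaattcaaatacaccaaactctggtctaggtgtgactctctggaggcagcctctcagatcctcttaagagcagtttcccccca
Alox12b, chr11:69156822-69157121, plus strand: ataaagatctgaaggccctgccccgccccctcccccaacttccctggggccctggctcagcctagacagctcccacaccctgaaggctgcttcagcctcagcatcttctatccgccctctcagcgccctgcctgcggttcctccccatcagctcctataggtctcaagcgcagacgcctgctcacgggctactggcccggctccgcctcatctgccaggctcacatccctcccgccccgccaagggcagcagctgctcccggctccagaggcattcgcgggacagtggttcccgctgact
The Sptlc3 window held no CCAAT on either strand and had a G+C content of 37.3%. The Sptlc1 window had 1 match and 62.3% G+C, and that of Sptlc2 had 3 matches and 59.3%. The Alox12e window had 1 match and 50.7% G+C, while Alox12b had none and 66.0%. Windows were found for 31 of the members (43 windows, since some genes have several starts), and 12 of the 43 held CCAAT on either strand, against 37.4% of all 32851 windows. The sequence CCGTTA, which Ovol proteins are known to bind, and its reverse complement were in 0 of the 43 windows and in 2.76% of all windows. TATAAA, searched on both strands in the same way, was in 2 of the 43 (in Sdr9c7 and Sgms1) and in 13.6% of all. These counts describe only the letters in these windows.

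The first step of ceramide synthesis held the called gene. Sptlc3, whose human counterpart is known to use shorter fatty acids than that of Sptlc2, had an intensity of 194 and 227 in Ovol2 BT skin and of 600 and 453 in control skin. The groups did not overlap, and the lowest control value was well above the highest Ovol2 BT value. On the scale of log2(intensity + 16), Sptlc3 fell by 1.25 (SE 0.23, 2.38-fold, limma adjusted p = 0.0427, 95% interval -1.76 to -0.73). The call lay close to the threshold of 0.05. It ended without control replicate 1 (difference -1.05), without Ovol2 BT replicate 1 (-1.14), under quantile normalization (-1.18, limma adjusted p = 0.0699) and with no filter on low values (limma adjusted p = 0.0505). The call held under the other 11 alternatives. Differences there ran from -1.45 (without control replicate 2) to -0.92 (arrays centred on cell junction genes), both from fits with infinite prior degrees of freedom. Of these 11, a threshold of 0.10 could not end the call. Averaging probe sets left the values of Sptlc3, which has 1, unchanged. Beside it, the basal keratinocyte list had 4 of 15 tested genes called lower, and its mean log2 level was 9.76 and 9.62 in Ovol2 BT against 10.38 and 10.35 in the controls; its part in the Sptlc3 result was not tested.

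Sptlc1, the subunit that both forms of the enzyme share, had 524 and 617 in Ovol2 BT and 805 and 658 in the controls (-0.35, SE 0.22, adjusted p = 0.613). Sptlc2, the alternative catalytic subunit, had 634 and 1119 in Ovol2 BT and 1038 and 1155 in the controls (-0.37, SE 0.28, adjusted p = 0.657). The Sptlc2 groups overlapped, and Ovol2 BT replicate 1 alone lay low. Whether the 3 subunits differed from each other in their response was not tested. Kdsr, which reduces the product of that enzyme, was at 0.26 (SE 0.22, adjusted p = 0.698), with overlapping groups.

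**Figure D1:**
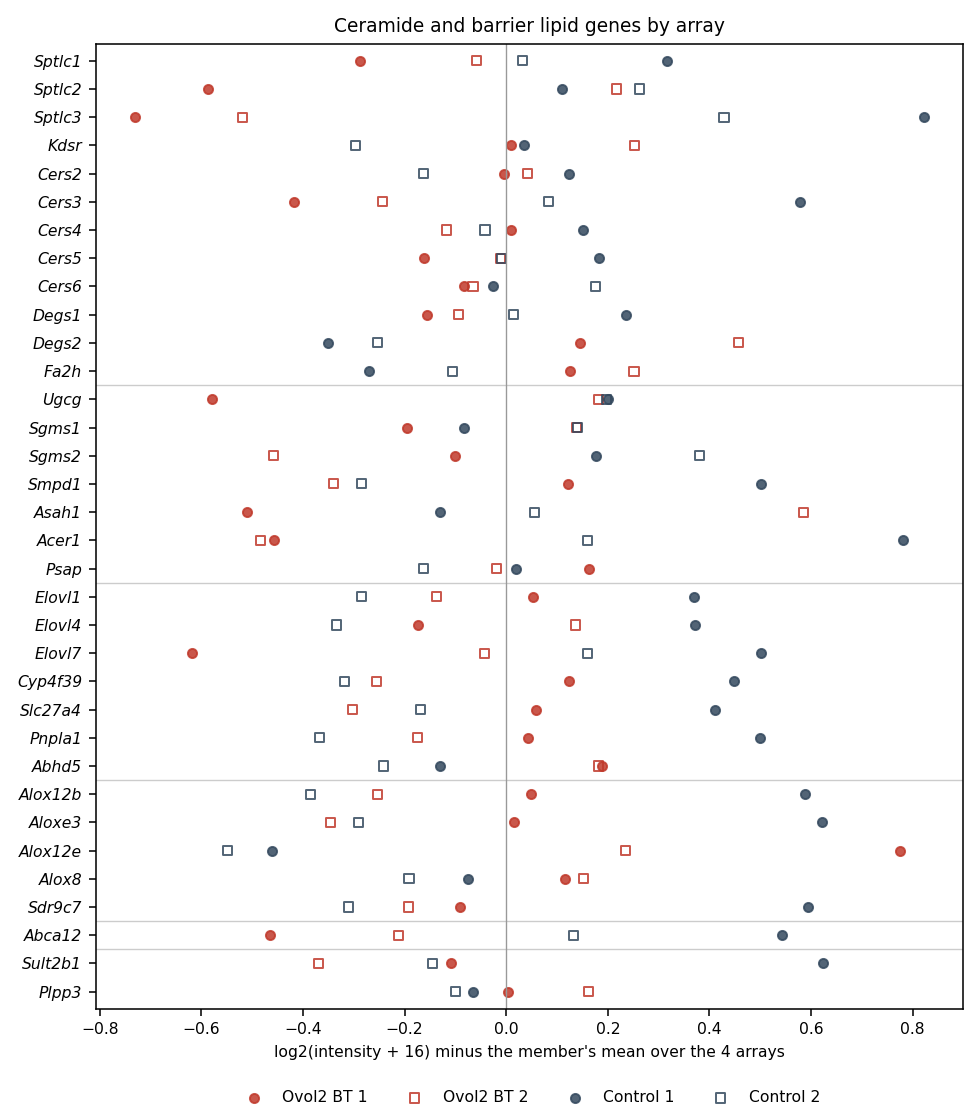
Level of each of the 34 measured genes in each array, as log2(intensity + 16) minus that gene's own mean over the 4 arrays, with genes ordered by role and grey lines between roles. Red symbols are Ovol2 BT and dark blue symbols are control, with filled circles for replicate 1 and open squares for replicate 2. Sptlc3 shows the groups apart, and Alox12b, Aloxe3 and Sdr9c7 show control replicate 1 apart from the other arrays.

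Among the ceramide synthases, Cers3 had the lowest difference. Cers3, the synthase of ceramides with ultra-long acyl chains in the epidermis, had 733 and 829 in Ovol2 BT and 1479 and 1045 in the controls. Its groups did not overlap, but the control values were far apart, and it was not called (-0.66, SE 0.23, adjusted p = 0.365, 95% interval -1.19 to -0.14). Cers2, which attaches very long chains in many tissues, was at 0.04 (SE 0.20, adjusted p = 0.955), with an interval of -0.40 to 0.48. Cers4 (-0.11, interval -0.57 to 0.35) had overlapping groups. Cers5 (-0.17) and Cers6 (-0.15), synthases of ceramides with palmitate, were lower by small amounts in groups that only just did not overlap. The Cers5 values were 1531 and 1700 in Ovol2 BT against 1948 and 1704 in the controls.

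The desaturase genes had differences of opposite sign, neither of them called, and a difference between them was not tested. Degs1, which introduces the double bond of ordinary ceramide, had 1609 and 1679 in Ovol2 BT and 2116 and 1812 in the controls (-0.25, SE 0.19, adjusted p = 0.658). Degs2, whose product also adds the hydroxyl group of phytoceramides, had 129 and 164 in Ovol2 BT and 86.8 and 93.9 in the controls (0.60, SE 0.18, adjusted p = 0.255, interval 0.20 to 1.0). Fa2h, which hydroxylates the acyl chain, had 126 and 139 in Ovol2 BT and 91.9 and 105 in the controls (0.38, SE 0.17, adjusted p = 0.486). The groups did not overlap for Degs2 and Fa2h, at intensities close to the median of all probe sets (123 to 132), and neither was called.

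Enzymes that add or remove headgroups and that break ceramide down held no called gene among 7. Acer1, the alkaline ceramidase of the epidermis, had 804 and 789 in Ovol2 BT and 1917 and 1241 in the controls. Both Ovol2 BT values were below both control values, and the control arrays differed more from each other than the Ovol2 BT arrays did. Its difference was -0.94 (SE 0.24, adjusted p = 0.176, interval -1.49 to -0.39), and it was -0.63 without control replicate 1 and -1.25 without control replicate 2, where it was called (adjusted p = 0.0204). Asah1, the lysosomal acid ceramidase, had 396 and 865 in Ovol2 BT and 520 and 594 in the controls. Its Ovol2 BT arrays lay on either side of the controls, so its difference of 0.08 (SE 0.33) has a wide interval of -0.68 to 0.83.

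Ugcg, the glucosylceramide synthase that supplies lamellar bodies, had 480 and 825 in Ovol2 BT and 836 and 834 in the controls (-0.40, SE 0.27, adjusted p = 0.633). Only Ovol2 BT replicate 1 stood clearly below the controls. Sgms1, a sphingomyelin synthase of the Golgi, was at -0.06 (SE 0.22, interval -0.57 to 0.45). Sgms2, the sphingomyelin synthase of the cell surface, had 73.5 and 53.9 in Ovol2 BT and 92.5 and 109 in the controls (-0.56, SE 0.17, adjusted p = 0.282), with the groups apart at low intensity. Smpd1, the acid sphingomyelinase, was at -0.22 (SE 0.27), and Psap, the precursor of the saposins that help lysosomal lipid hydrolases, at 0.14 (SE 0.16); their groups overlapped.

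The genes for very long acyl chains and acylceramide showed no call among 7. Elovl4, the elongase of ultra-long chains, had 2990 and 3711 in Ovol2 BT and 4374 and 2673 in the controls, and both Ovol2 BT values lay between the controls (-0.04, SE 0.24, interval -0.59 to 0.51). The same order held for Elovl1, an elongase of saturated very long chains, at 4571 and 4001 in Ovol2 BT against 5693 and 3613 in the controls (-0.08, SE 0.22). Cyp4f39, the mouse counterpart of the human omega-hydroxylase CYP4F22, had 1145 and 877 in Ovol2 BT and 1439 and 839 in the controls (-0.13, SE 0.28). Pnpla1, which moves linoleate onto the omega-hydroxyl group, had 1193 and 1023 in Ovol2 BT and 1641 and 893 in the controls (-0.13, SE 0.29). For these 4 genes the Ovol2 BT arrays fell inside the range of the controls.

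Elovl7, another elongase of saturated chains, differed more. It had 635 and 954 in Ovol2 BT and 1399 and 1100 in the controls, with the groups apart (-0.66, SE 0.25, adjusted p = 0.422). Slc27a4, a fatty acid transport protein and acyl-CoA synthetase, was at -0.24 (SE 0.25) with overlapping groups. Abhd5, which assists Pnpla1 in acylceramide synthesis and activates the lipase Pnpla2 in fat cells, had 1092 and 1086 in Ovol2 BT and 872 and 806 in the controls (0.37, SE 0.20, adjusted p = 0.568). It was the single member of this group with values higher in Ovol2 BT. Beside it, all 21 tested adipocyte genes had higher values and 14 were called, with a mean log2 level of 10.65 and 10.55 in Ovol2 BT against 8.92 and 8.22 in the controls; their part in the Abhd5 values was not tested.

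**Figure D2:**
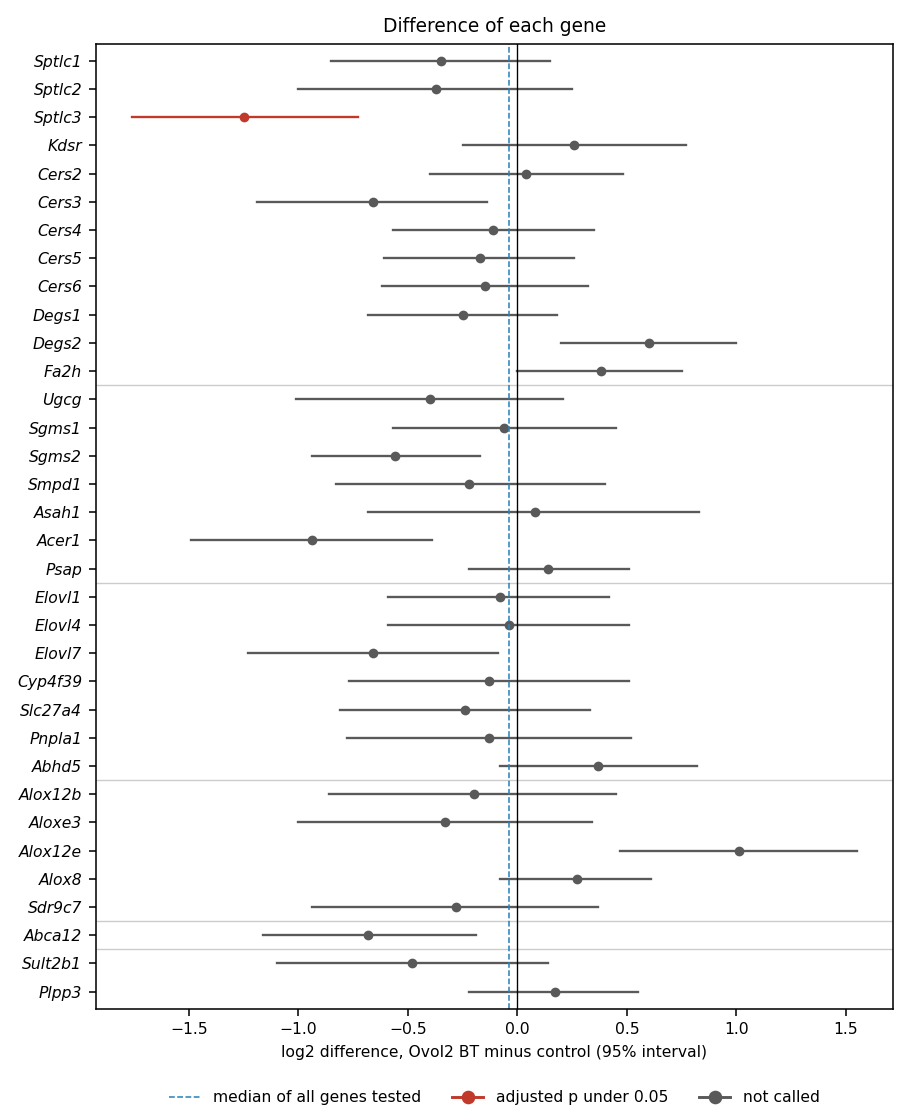
Log2 difference (Ovol2 BT minus control, horizontal axis) of each of the 34 genes with its 95% interval from the limma fit, in the order of roles used in the text. Sptlc3, in red, is the called gene at -1.25, Alox12e has the highest value at 1.01, and the dashed line is the median of all genes tested, -0.04.

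In the lipoxygenase route, the enzymes that act in sequence on acylceramide did not pass the test. Alox12b, the 12R-lipoxygenase that oxidises the linoleate, had 3555 and 2881 in Ovol2 BT and 5177 and 2628 in the controls (-0.20, SE 0.29, adjusted p = 0.819, interval -0.86 to 0.45). Aloxe3, which converts the product to an epoxyalcohol, had 1617 and 1254 in Ovol2 BT and 2469 and 1304 in the controls (-0.33, SE 0.30, interval -1.0 to 0.34). Sdr9c7, the dehydrogenase of the next step, had 1159 and 1078 in Ovol2 BT and 1871 and 993 in the controls (-0.28, SE 0.29, interval -0.94 to 0.37). In each of the 3 the control arrays enclosed at least 1 Ovol2 BT value, and control replicate 1 was the highest of the 4 arrays. Without that array the differences were 0.28, 0.13 and 0.17, and without control replicate 2 they were -0.69, -0.79 and -0.73, none of them called.

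Alox12e, the epidermal 12S-lipoxygenase gene of the mouse, had the highest difference of all members. It had 1487 and 1018 in Ovol2 BT and 622 and 585 in the controls, so every Ovol2 BT value exceeded every control value. The difference was 1.01 (SE 0.24, adjusted p = 0.128, interval 0.47 to 1.55), so Alox12e was not called. Its difference was 1.28 without Ovol2 BT replicate 2, where Alox12e was called on a lone Ovol2 BT array, and 0.74 without Ovol2 BT replicate 1, where it was not. With each array centred on cell junction genes it was 1.34, and Alox12e was called (limma adjusted p = 0.000144). That fit had infinite prior degrees of freedom and called 1411 of all genes higher, against 92 in the main fit. The call under the centring is therefore not specific to Alox12e. The replicate block, a pairing that no label establishes, also called Alox12e (limma adjusted p = 0.00529). Under that block 671 of all genes were called, against 144 in the main fit. Alox8, an inducible lipoxygenase of mouse skin, had 102 and 105 in Ovol2 BT and 87.4 and 79.4 in the controls (0.27, SE 0.15, adjusted p = 0.587). By the RefSeq gene order, Aloxe3, Alox12b and Alox8 are neighbours on chromosome 11, and Alox12e lies elsewhere on that chromosome, 67 coding genes from Alox12b. The neighbours Alox12b and Alox8 thus had values of opposite sign, neither of them called.

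Abca12, the transporter that loads glucosylceramide into lamellar bodies, had 1268 and 1514 in Ovol2 BT and 2565 and 1926 in the controls. The groups did not overlap, and the difference of -0.68 (SE 0.21, adjusted p = 0.305, interval -1.16 to -0.19) was not called. Sult2b1, the sulfotransferase of cholesterol in the upper epidermis, had 1005 and 836 in Ovol2 BT and 1681 and 980 in the controls (-0.48, SE 0.27, adjusted p = 0.587). Control replicate 2 fell between the Ovol2 BT arrays. Plpp3, a phosphatase of lysophosphatidate and sphingosine phosphate at the cell surface, was at 0.17 (SE 0.17, adjusted p = 0.746).

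As a set the members held a single call. The 1 called member (2.94% of 34) was lower, where 0.348% of all genes tested were called lower, 0.615% higher and 0.963% in either direction. At an unadjusted p under 0.05 there were 8 members, 6 lower (Sptlc3, Cers3, Sgms2, Acer1, Elovl7 and Abca12) and 2 higher (Degs2 and Alox12e), which is 23.5% of the members where 10.4% of all genes did the same (5.24% lower and 5.11% higher). The groups did not overlap for 17 of the 34 members, 11 lower (32.4%) and 6 higher (17.6%), against 42.3% of all genes (21.9% lower and 20.4% higher). The median difference was -0.16 over the members and -0.04 over all genes, and 24 of the 34 (70.6%) had lower values, against 55.6% of all genes. The share with lower values was also 70.6% among the further sphingolipid genes described below, and 45.2% among the further barrier lipid genes. It was 84.4% among granular and envelope genes and 86.7% in the basal keratinocyte list. Shares at an unadjusted p under 0.05 were 11.8%, 19.0%, 37.5% and 46.7% in the same order. The members' median rested on the control arrays: it was 0.09 without control replicate 1 and -0.40 without control replicate 2, against -0.01 and -0.05 for all genes. For 23 members the 95% interval lay within 1 log2 unit either way, so for bright ones a 2-fold change lies outside the single-gene interval. Folds of dim genes are understated on the log2 scale used here. An interval within 1 log2 unit therefore does not exclude a 2-fold intensity change of dim Sgms2 (-0.94 to -0.17). For the other 11 members, Sptlc3 among them, the interval reached 1 log2 unit or more. Of 20 desmosome and adherens junction genes 19 were tested, with lower values in 17 and a median difference of -0.24. Centring each array on these 20 genes moved the median of all genes to 0.29 and that of the members to 0.17. The centring left the members the same distance below all genes but made 24 of their 34 values positive. Under it the calls of all genes split into 1411 higher and 82 lower, against 92 and 52 without it, and 5 members were called, Sptlc3 lower (-0.92) and Degs2 (0.94), Fa2h (0.71), Alox12e (1.34) and Alox8 (0.60) higher.

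A wide gap between the control arrays recurred among the members. In 11 members control replicate 1 exceeded control replicate 2 by more than 0.5 on the log2 scale, by 0.58 to 0.97, where 4.73% of all genes did so. They were Alox12b, Aloxe3, Sdr9c7, Pnpla1, Smpd1, Cyp4f39, Sult2b1, Elovl4, Elovl1, Acer1 and Slc27a4, which include the 3 enzymes that act in sequence on linoleate and 5 of the 7 acyl chain and acylceramide genes. Between the Ovol2 BT arrays the gap of the same 11 genes was -0.31 to 0.46, with replicate 1 again the higher in 10 of them. Their groups overlapped in 10 of 11, the exception being Acer1, and all 11 had a negative difference, with a median of -0.22. These 11 were picked by their control values, so the counts describe them only.

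The gap between the control arrays varied by role. The 5 genes of the lipoxygenase route had a median gap between control replicates of 0.90 and the 7 acyl chain genes one of 0.65, while the 12 genes of de novo synthesis had 0.21 and the 7 headgroup and turnover genes 0.00, although that role holds Smpd1 (0.79) and Acer1 (0.62); these differences between roles were not tested. Granular layer and cornified envelope genes showed a similar gap: their mean log2 level was 10.72 and 10.65 in Ovol2 BT against 11.13 and 10.68 in the controls, with 29 of 32 higher in control replicate 1 than in control replicate 2. Tgm1, the transglutaminase of the envelope, had 1844 and 1345 in Ovol2 BT and 2899 and 1830 in the controls. The adipocyte list also differed between the control arrays (8.92 and 8.22), and the fibroblast list less so (11.65 and 11.79). What part these have in the members' values was not tested.

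**Figure D3:**
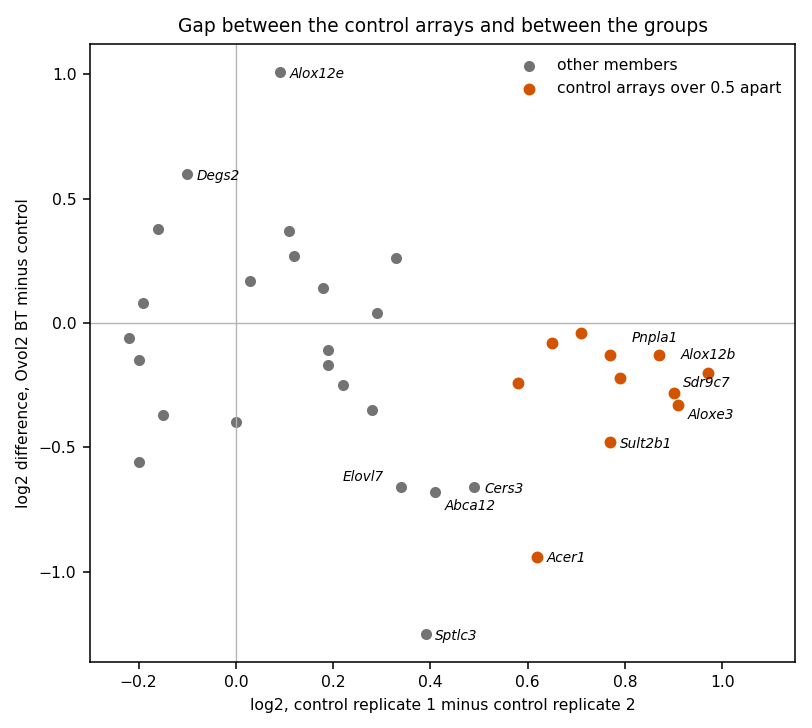
For each of the 34 genes, the log2 difference between the groups (vertical axis, Ovol2 BT minus control) against the log2 gap between the control arrays (horizontal axis, replicate 1 minus replicate 2). The 11 orange points have control arrays more than 0.5 apart and lie below 0 on the vertical axis, from -0.04 to -0.94 (Acer1). Sptlc3 (-1.25) and Alox12e (1.01) have smaller control gaps of 0.39 and 0.09.

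**Figure D4:**
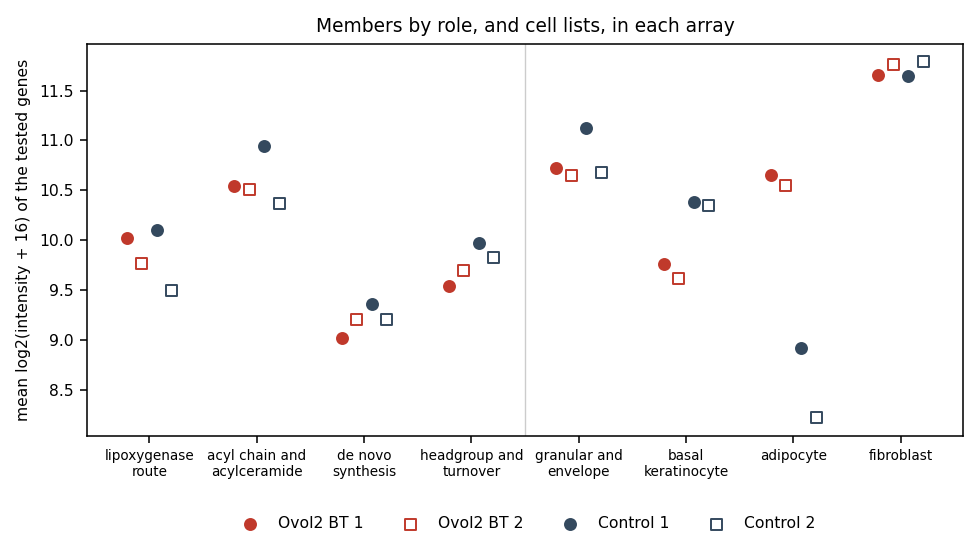
Mean log2(intensity + 16) of the tested genes of 4 member roles (left of the line) and 4 cell lists (right of it) in each array. Red is Ovol2 BT and dark blue control, filled circles replicate 1 and open squares replicate 2. The lipoxygenase and acyl chain genes have Ovol2 BT between the control arrays, and the basal keratinocyte and adipocyte lists have the groups apart in opposite directions; list levels rest on different probes and are read only within a list.

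The rest of the sphingolipid pathway held no call. Of 40 further genes of sphingolipid synthesis, turnover and signalling, 37 had a probe set and 34 were tested by limma, with 0 called and 4 (11.8%) at an unadjusted p under 0.05, all lower, a share close to the 10.4% of all genes. These were Asah2, the neutral ceramidase (-0.73, adjusted p = 0.266), Smpd3, a neutral sphingomyelinase (-0.71, adjusted p = 0.400), Ormdl1, a regulator of serine palmitoyltransferase (-0.61, adjusted p = 0.460), and Gba2, a glucosylceramidase outside lysosomes (-0.71, adjusted p = 0.463). Asah2 had 437 and 529 in Ovol2 BT and 871 and 749 in the controls, with the groups apart. The median of the list was -0.12, against -0.04 for all genes and -0.16 for the members.

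Of 52 further genes of fatty acid elongation, desaturation, omega-oxidation, lipoxygenation and lipid transport, 42 were tested, and 2 were called, both higher (0.615% of all genes). Scd1, the stearoyl-CoA desaturase, had 3385 and 5767 in Ovol2 BT and 982 and 873 in the controls, and rose by 2.23 (SE 0.26, 4.71-fold, adjusted p = 0.00605). Pnpla2, the triglyceride lipase that Abhd5 activates, had 5228 and 4101 in Ovol2 BT and 1201 and 628 in the controls, and rose by 2.39 (SE 0.29, 5.25-fold, adjusted p = 0.0076). Scd1 and Pnpla2 are strongly expressed by fat cells, and Pnpla2 is also in the adipocyte list, whose called genes are given above. In the sebaceous gland list 8 of 12 genes were tested, 6 with higher values, and Cidea, which the adipocyte list also holds, was the 1 called, at 3.14. The mean log2 level of these 8, Cidea included, was 9.09 and 8.99 in Ovol2 BT against 8.73 and 8.58 in the controls. Their median difference was 0.19, and 2 had lower values, down to -1.35. Mc5r, a receptor of sebaceous cells, had 256 and 228 in Ovol2 BT and 156 and 166 in the controls (0.55, limma adjusted p = 0.365). Awat1 (44.4 and 53.0 in Ovol2 BT, 85.2 and 57.5 in the controls) and Awat2 (49.7 and 50.6, 47.7 and 53.2) lay below the filter. The part of these cells in the Scd1 and Pnpla2 results was not tested. The fatty acid transporter gene Slc27a1 (1.03, adjusted p = 0.103), the epidermal lipase gene Lipk (-1.11, adjusted p = 0.223), the lipoxygenase gene Alox12 (-0.80, adjusted p = 0.305) and the cholesterol exporter gene Abca1 (0.63, adjusted p = 0.334) did not pass. The median of this list was 0.01.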

How the data were processed

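The authors deposited 1 linear intensity per probe set and array. The submitters' processing notes name PLIER 2.0 and Affymetrix Expression Console 1.1.1; background correction, scaling between arrays and the genome build remain not given in the sources used here. Groups and replicate numbers come from the sample titles. The titles call the arrays biological replicates, each a pool of 2 mice, so the spread between single mice was not measured, and 2 arrays a group limit the precision. Array medians were 123 to 132, and no further normalization was applied.

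Of 35557 probe sets, 21789 name 1 gene by the platform annotation, 1621 several and 12147 none; 21698 of the 21789 matched RefSeq (GRCm38.p6, names only) by Entrez ID. For 999 genes with several probe sets, the probe set with the highest mean was used; each member but Sts had 1. Values were analysed as log2(intensity + 16), so folds of dim genes are understated. The lowest 25% of genes by mean level were left out, leaving 14953. Differences (Ovol2 BT minus control) were fitted with limma 3.58.1 in R 4.3.3 (moderated variances with a trend on level, 6.94 prior and 2 residual degrees of freedom, two-sided tests, Benjamini-Hochberg over all genes, called under 0.05). The fit was tested on simulated data with known changes. The text names all members and, of both further pathway lists, every called gene and the 4 uncalled ones with the smallest p, besides set marker genes. Members, gene lists, tests and alternatives were chosen with earlier results of these data known. Tables and plots used Python 3.11.15, pandas 2.3.3 and matplotlib 3.10.9.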

Additional observations from a re-analysis of the deposited data

How the results depend on the processing

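Across 15 alternatives, 458 of 506 checks of single members kept their direction and their side of the threshold. None of the 35 that changed sign was called. The filters, the threshold, the variance trend, the block and the averaging of probe sets leave a member's difference unchanged. Checks under these could only change whether it was called. The 1 called member became 0 without the filter and 0 under quantile normalization, 5 with arrays centred on cell junction genes, 4 with the replicate number as a block, and 0 to 2 with an array left out. Of the further sphingolipid genes 3 were called under the block, against 0. Of the further barrier lipid genes 8 were called under the junction centring and 7 under the block, against 2, and 2 to 4 with an array left out. The junction centring, which moved the members' median from -0.16 to 0.17 by its construction, also gave infinite prior degrees of freedom, and 1493 of all genes were then called, against 144. The fits without control replicate 1 and without control replicate 2 rest on infinite prior degrees of freedom too. So do the Acer1 and Sptlc3 calls in the fit without control replicate 2. Counts over all genes were 671 under the block, 249 without Ovol2 BT replicate 2 and 366 without control replicate 1. Apart from the centring's shift, the cause of these changes was not tested.

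The replicate block called Acer1 (-0.94, adjusted p = 0.0107), Alox12e (1.01, adjusted p = 0.00529) and Abca12 (-0.68, adjusted p = 0.0492) beside Sptlc3 (adjusted p = 0.00237). Deviations of same-numbered arrays from their group means correlated at 0.41 over 14953 genes, but with 2 arrays a group and no label that ties the numbers to a litter or day, the pairing is not established.

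Signs changed under quantile normalization for Sgms1 (0.03) and Elovl4 (0.01). Under the junction centring they changed for Cers4 (0.22), Cers5 (0.16), Cers6 (0.18), Degs1 (0.08), Sgms1 (0.28), Smpd1 (0.12), Elovl1 (0.25), Elovl4 (0.30), Cyp4f39 (0.20), Slc27a4 (0.09), Pnpla1 (0.20), Alox12b (0.13), Aloxe3 (0.00) and Sdr9c7 (0.05). With an array left out, the lowest and highest differences were -0.61 and 0.18 for Smpd1, -0.47 and 0.62 for Asah1, -0.41 and 0.24 for Elovl1, -0.39 and 0.32 for Elovl4, -0.51 and 0.25 for Cyp4f39, -0.53 and 0.05 for Slc27a4, -0.56 and 0.30 for Pnpla1, -0.69 and 0.28 for Alox12b, -0.79 and 0.13 for Aloxe3, -0.73 and 0.17 for Sdr9c7, -0.10 and 0.18 for Cers2, -0.22 and 0.11 for Sgms1, and -0.77 and 0.03 for Sptlc2. The lone array left in a group is then assumed to vary like the others. The values hold no detection calls, so how far the dim members lie above background is unknown.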
